A study of Rattus norvegicus with 66 samples.

Results

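GABA-A receptors are chloride channels built from 5 subunits around a central pore, and the subunit genes decide where a receptor sits and how it responds to GABA. The genes examined were 7 of the 19 GABA-A subunit rows of the rat gene map, out of 37777 genes in all, and each of the 7 symbols occurred in 1 row. They were taken by symbol and fall into 3 roles. Gabra2, Gabra3 and Gabra5 encode alpha subunits that prevail in the immature forebrain and are called juvenile subunits here. Gabra4, Gabrb2 and Gabrd become more abundant as the forebrain matures and are called adult subunits. Gabrb1 encodes a beta subunit that was placed in neither class. In young hippocampal neurons GABA-A receptors depolarize the membrane before chloride export develops, alpha5 receptors lie mainly outside synapses and carry tonic inhibition, and delta subunits join alpha4 in extrasynaptic receptors of the dentate gyrus and thalamus.

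Expression was measured by RNA sequencing of the dorsal hippocampus of 64 Long Evans rat pups (41 males and 23 females) of 44 litters on postnatal day 6, in 66 libraries. Dams of the treated groups received Aroclor 1254, a mixture of polychlorinated biphenyls (Aro), or bisphenol A, a monomer of plastics (BPA), with the chow at 0.5 or 5 mg/kg (Aro0.5, Aro5, BPA0.5, BPA5), or the organophosphate insecticide chlorpyrifos (CPF) by subcutaneous injection at 1 or 3 mg/kg (CPF1, CPF3). Feeding controls (CONF) had untreated chow, and injection controls (CONSC) had the vehicle, which is saline in the labels and DMSO in the methods. Of the males, 4 were CONF and 5 CONSC, the high dose had 6 Aro5, 7 BPA5 and 7 CPF3 pups, and the low dose had 4 pups of each agent. The females were 5 CONF, 5 CONSC, 5 Aro5, 4 BPA5 and 4 CPF3 pups. Treated chow was given from before mating through pregnancy and lactation, and chlorpyrifos was injected during pregnancy and lactation. Exposure was through the dam, so pups of a litter share it. The Aro5 males and the Aro5 females each include a pair of pups from 1 litter.

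Library totals ranged from 10644138 to 86206550 counts with a median of 20740650. The tissue piece was cut as hippocampus plus laterally adjacent cortex, and markers of other regions varied strongly between pups. Prox1, a transcription factor of dentate granule cells, ranged from 22.9 to 182 counts per 1000000 counts of the library (CPM), and was below 50 CPM in 3 pups, namely 116-6y and 120-2y of the Aro5 males and 38-5x of the CPF3 females. The thalamic transcription factor Tcf7l2 ranged from 23.7 to 707 CPM and the striatal dopamine receptor Drd1 from 8.24 to 115 CPM, while Fibcd1, fixed as a hippocampal marker, was at 0 in all 64 pups. Library names came in 2 written forms, here form A and form B, whose meaning the labels do not give. Of the male control libraries 9 were written in form A and 1 in form B, low-dose males were all in form A and high-dose males all in form B, so that form and high dose cannot be told apart in males. Among the female controls, form A named 5 libraries and form B named 6, while names of treated females showed no readable form. In bulk tissue, fewer cells of a type and less RNA per cell cannot be told apart.

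Promoters are shown for 2 pairs of a juvenile and an adult subunit that varied alike between pups, Gabra4 with Gabra5 and Gabra3 with Gabrb2, and for Gabrd, the most variable of the 7 genes. RefSeq windows of 300 bases (250 before and 50 after the gene start) were at hand for 6 of the 7 genes, all but Gabra2, in build GRCr8, which is not the build of the counts. Capitals mark GGGCGG (or CCGCCC on the other strand, the GC box) and the palindrome TGCGCA, 5′ to 3′ on the strand of the gene. The windows lie at chrX:155543821-155544120 (minus strand) for Gabra3, chr10:27439543-27439842 (plus strand) for Gabrb2, chr14:36944497-36944796 (plus strand) for Gabra4, chr1:117516557-117516856 (minus strand) for Gabra5 and chr5:171252660-171252959 (minus strand) for Gabrd.
Gabra3: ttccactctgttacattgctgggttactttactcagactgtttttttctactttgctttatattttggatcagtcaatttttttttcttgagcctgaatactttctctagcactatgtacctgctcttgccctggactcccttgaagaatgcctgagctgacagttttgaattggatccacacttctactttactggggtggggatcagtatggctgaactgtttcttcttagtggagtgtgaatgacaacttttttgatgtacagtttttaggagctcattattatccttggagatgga
Gabrb2: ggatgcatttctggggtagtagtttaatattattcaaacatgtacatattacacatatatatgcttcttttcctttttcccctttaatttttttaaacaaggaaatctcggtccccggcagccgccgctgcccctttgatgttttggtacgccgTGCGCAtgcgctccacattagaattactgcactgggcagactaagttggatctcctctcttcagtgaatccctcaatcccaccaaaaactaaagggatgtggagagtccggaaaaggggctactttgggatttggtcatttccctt
Gabra4: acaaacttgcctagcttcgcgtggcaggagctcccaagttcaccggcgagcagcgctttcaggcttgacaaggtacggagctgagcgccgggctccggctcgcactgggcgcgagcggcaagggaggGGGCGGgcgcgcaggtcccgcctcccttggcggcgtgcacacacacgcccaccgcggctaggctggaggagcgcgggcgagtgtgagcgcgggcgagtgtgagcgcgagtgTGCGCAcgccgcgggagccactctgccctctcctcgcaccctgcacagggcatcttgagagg
Gabra5: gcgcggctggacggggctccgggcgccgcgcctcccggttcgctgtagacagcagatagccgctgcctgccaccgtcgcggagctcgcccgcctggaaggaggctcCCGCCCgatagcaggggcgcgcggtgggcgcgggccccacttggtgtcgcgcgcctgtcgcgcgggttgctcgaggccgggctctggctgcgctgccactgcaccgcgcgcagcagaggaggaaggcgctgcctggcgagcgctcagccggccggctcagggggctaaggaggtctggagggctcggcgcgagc
Gabrd: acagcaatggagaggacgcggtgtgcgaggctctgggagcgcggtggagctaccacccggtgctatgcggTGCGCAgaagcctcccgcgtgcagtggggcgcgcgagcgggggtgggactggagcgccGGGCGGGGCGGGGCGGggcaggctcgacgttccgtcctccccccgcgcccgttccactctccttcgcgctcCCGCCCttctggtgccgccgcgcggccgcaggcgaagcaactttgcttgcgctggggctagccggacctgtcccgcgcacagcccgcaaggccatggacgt
GGGCGG was present in 33.1% and TGCGCA in 7.24% of 33469 promoter windows of that length. Gabra4, Gabra5 and Gabrd held the GC box, with 4 matches in Gabrd, while Gabra3, Gabrb1 and Gabrb2 held none. TGCGCA occurred in Gabra4, Gabrb1, Gabrb2 and Gabrd, and the longest run shared by the windows of both beta subunit genes was TGCGCATGCGC, of 11 bases. Of the other motifs searched on both strands, TATAAA occurred in Gabra3 alone (14.2% of all windows), CCAAT in Gabra3 and Gabrb1 (37.5%) and TGACGT in none of the 6 (7.94%). GC content was 39.3% in Gabra3, 44.0% in Gabrb2, 49.3% in Gabrb1, 70.7% in Gabra4, 73.7% in Gabrd and 76.3% in Gabra5, beside a median of 51.7% over all windows. Gabrb1 and Gabra4 are neighbours on chromosome 14, and their windows point away from each other with 41353 bases between them.

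All 7 genes had counts in every pup. Lengths of the transcripts were not at hand, so the CPM of different subunits cannot be ranked against each other, and levels are compared only within a gene. Among the juvenile subunits, Gabra2 ranged from 48.4 to 140 CPM over the 64 pups (median 74.5), Gabra3 from 49.8 to 89.4 CPM (median 67.8) and Gabra5 from 158 to 272 CPM (median 197). Among the adult subunits, Gabra4 ranged from 52.4 to 120.5 CPM (median 79.7), Gabrb2 from 93.9 to 271 CPM (median 154) and Gabrd from 2.10 to 15.8 CPM (median 5.53). Gabrb1 ranged from 4.16 to 9.79 CPM (median 6.46). Gabrd, the delta subunit, thus had the widest spread, 7.499-fold from the lowest to the highest pup with a coefficient of variation of 41.7%, and Gabra5 and Gabra3 the narrowest, 1.72-fold and 1.80-fold with coefficients of variation of 11.5% and 11.8%.

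**Figure D1:**
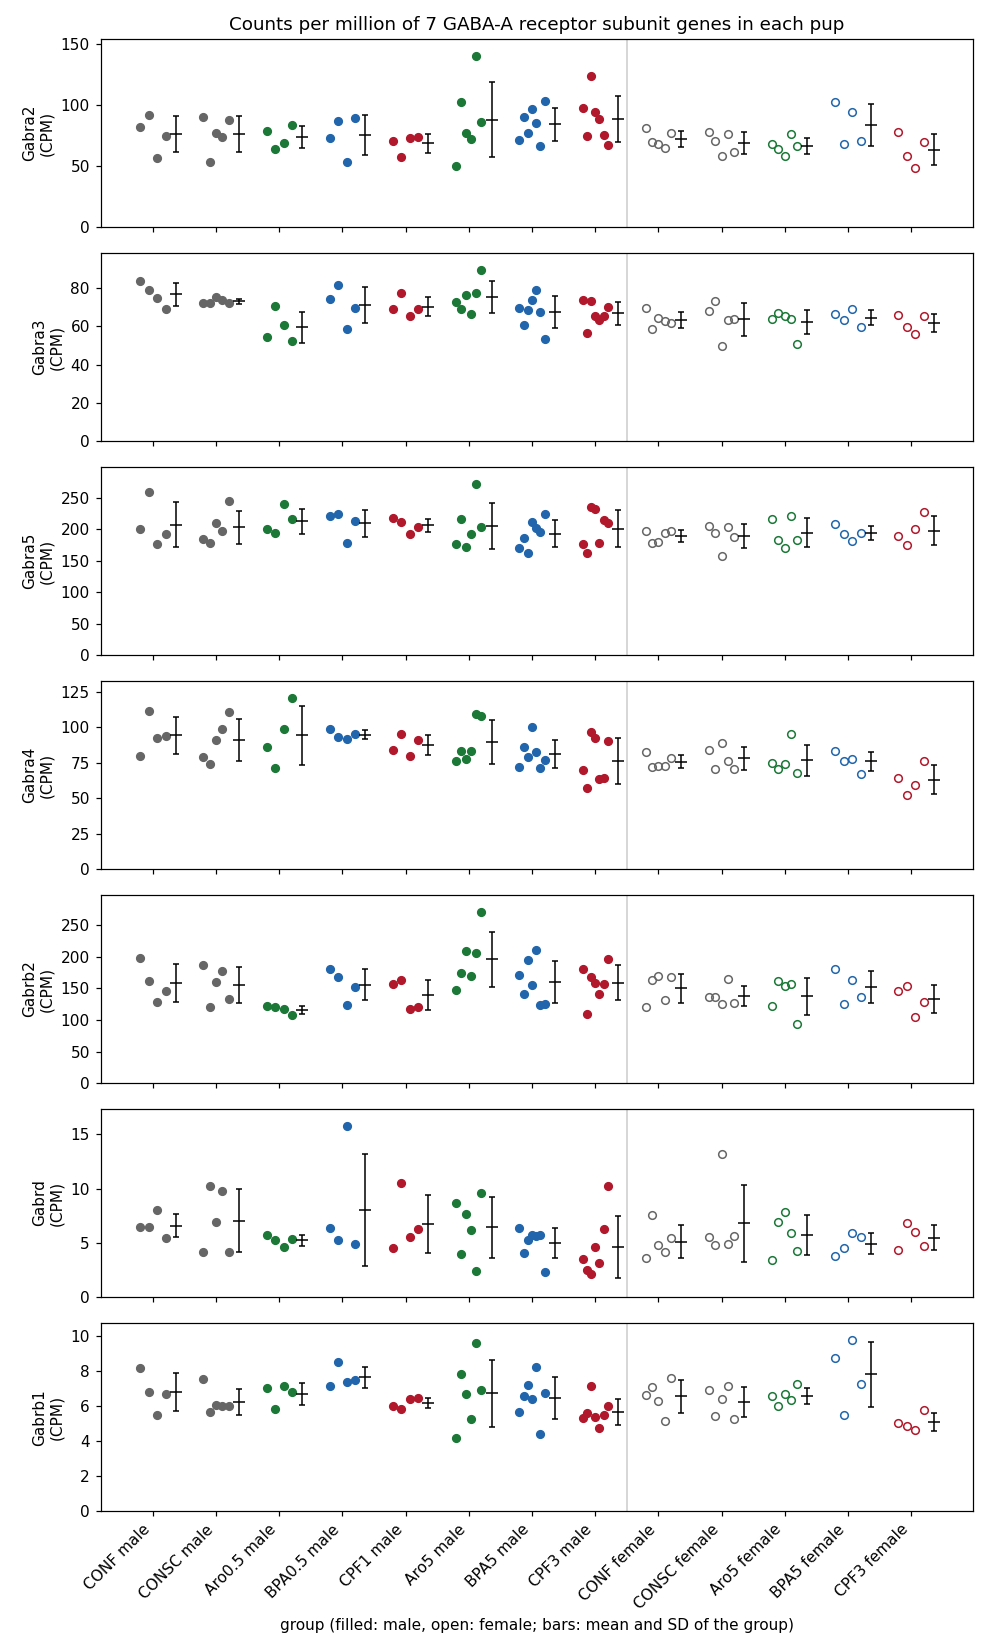
CPM (linear axis from 0) of each subunit gene in each of the 64 pups, by group, with the group mean and SD as bars. For every gene, neighbouring groups in the order of the means overlap, while the highest and lowest groups are separate for Gabra4 and Gabrb2. Single high pups stand out for Gabrd in BPA0.5 males (15.8 CPM) and CONSC females (13.2 CPM).

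When the 13 groups were ordered by their means, each of the 12 pairs of neighbours overlapped for each of the 7 genes. Neighbours in this order are the groups closest in mean, so their overlap says little about groups farther apart. The highest and lowest of the 13 groups did not overlap for Gabra4 (91.3 to 98.8 CPM in BPA0.5 males, 52.4 to 76.2 CPM in CPF3 females). Nor did they for Gabrb2 (147 to 271 CPM in Aro5 males, 107 to 121 CPM in Aro0.5 males). For the other genes they overlapped. The highest and lowest group means differed 1.12-fold for Gabra5 (Aro0.5 males 213 ± 20.1, CONF females 189 ± 9.16 CPM, SD, n = 4 and 5) and 1.29-fold for Gabra3 (CONF males 76.6 ± 6.16, Aro0.5 males 59.4 ± 8.16 CPM, n = 4 each). They differed 1.40-fold for Gabra2 (CPF3 males 88.5 ± 19.0, CPF3 females 63.5 ± 12.8 CPM, n = 7 and 4) and 1.503-fold for Gabra4 (BPA0.5 males 94.7 ± 3.21, CPF3 females 63.0 ± 10.1 CPM, n = 4 each). The widest gaps were 1.54-fold for Gabrb1 (BPA5 females 7.84 ± 1.86, CPF3 females 5.09 ± 0.509 CPM, n = 4 each), 1.69-fold for Gabrb2 (Aro5 males 196 ± 43.5, Aro0.5 males 117 ± 6.31 CPM, n = 6 and 4) and 1.74-fold for Gabrd (BPA0.5 males 8.06 ± 5.18, CPF3 males 4.62 ± 2.84 CPM, n = 4 and 7). Gaps between neighbours were smaller than the smaller of both SDs in all 12 steps for Gabra2, Gabra5 and Gabrd, and in 9 to 11 of 12 steps for the other 4 genes.

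The question whether exposure through the dam shifts these subunits was asked first at the high dose in males. None of the 7 subunits passed the test in Aro5, BPA5 or CPF3 males against the 9 combined male controls (edgeR quasi-likelihood test, adjusted p under 0.05), while 0.195%, 0.189% and 0.159% of the 16393 genes tested passed. At an unadjusted p under 0.05 there were 1, 0 and 2 subunits, where 11.8%, 9.10% and 12.6% of all genes lay, and DESeq2 also called 0 subunits in each. The median log2 fold change of the 7 subunits in males was 0.03 for Aro5, -0.08 for BPA5 and -0.15 for CPF3, beside medians within 0.01 of 0 over all genes (-0.0016, 0.0076 and 0.0029).

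Gabrb2, a beta subunit of the mature forebrain, had the lowest unadjusted p of the subunits in Aro5 males. The 6 Aro5 males had 147, 170, 174, 206, 210 and 271 CPM, and the 9 male controls ranged from 120 to 199 CPM with a median of 161. The highest 3 Aro5 pups lay above all controls, and the other 3 lay within their range. The log2 fold change was 0.34 ± 0.14 (SE), with an adjusted p of 0.313 (edgeR). Both Aro5 males with Prox1 below 50 CPM were among those 3, with 210 and 271 CPM, and without them the log2 fold change was 0.17 with an adjusted p of 0.87. Summed neocortical markers (among them Rorb, Cux2, Fezf2 and Tle4) ran from 485 to 756 CPM in Aro5 males and from 276 to 614 CPM in male controls, and their part in the Gabrb2 values was not tested. Over the pups dissected within the time window of the study the log2 fold change was 0.55 with an adjusted p of 0.0618. The Aro5 males in that window were 115-14y, 116-6y, 120-1y and 120-2y. They include both pups with Prox1 below 50 CPM and both litter mates, and some of the 9 controls fell outside the window.

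In CPF3 males the adult subunit Gabra4, partner of delta outside synapses, was at 56.8, 63.7, 64.3, 69.8, 90.1, 92.2 and 96.6 CPM. The male controls ranged from 74.2 to 111 CPM with a median of 92.5, so that 4 of the 7 CPF3 males lay below every control and 3 within their range. The log2 fold change was -0.27 ± 0.12, with an adjusted p of 0.364 (edgeR). The juvenile alpha subunit Gabra3 had a log2 fold change of -0.15 ± 0.07 in the same pups (adjusted p = 0.39). Gabrd had the largest estimate, -0.54 ± 0.30 (adjusted p = 0.452), with 2.10, 2.48, 3.14, 3.47, 4.65, 6.29 and 10.2 CPM in CPF3 males beside 4.16 to 10.2 CPM in male controls. Of the 7 CPF3 males, 4 were below all controls for Gabrd, 3 of them the same pups as for Gabra4. The striatal markers (among them Drd1, Drd2, Adora2a and Ppp1r1b) summed to a median of 125 CPM in CPF3 males (111 to 534) and of 322 CPM in male controls (90.6 to 498). With the summed thalamic and striatal markers as covariates, an alternative added after the data had been seen, the log2 fold change of Gabrd was -0.26 and that of Gabra4 was -0.18. When library form entered the model, where only the pair of libraries of 1 male separates it from dose, the estimate for Gabra4 turned to 0.13 and that for Gabrd was -0.53.

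BPA5 males showed no unadjusted p under 0.05. Their largest estimates were -0.45 ± 0.30 for Gabrd (2.29 to 6.37 CPM, median 5.68, n = 7) and -0.18 ± 0.12 for Gabra4 (71.4 to 100.2 CPM, median 79.0). Gabra5, the alpha subunit of tonic inhibition, stayed within 0.08 of 0 on the log2 scale in the 3 high-dose male groups, with estimates of 0.02 ± 0.11 in Aro5, -0.08 ± 0.10 in BPA5 and -0.02 ± 0.10 in CPF3. Gabra2, a synaptic alpha subunit, was estimated at 0.22 ± 0.16, 0.15 ± 0.16 and 0.22 ± 0.16, and Gabrb1 at 0.07 ± 0.14, -0.01 ± 0.14 and -0.19 ± 0.14. The 3 contrasts share the 9 controls.

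**Figure D2:**
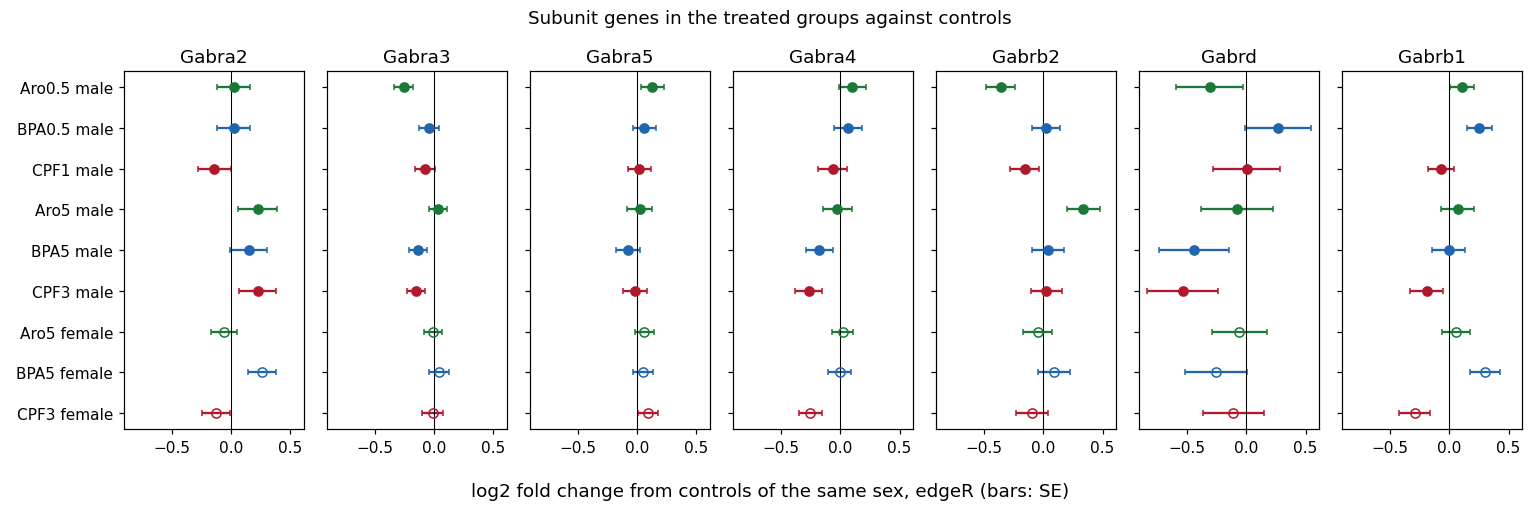
Log2 fold changes of each subunit gene (horizontal axis) in the 9 treated groups (rows) against controls of the same sex, with SE bars; filled points are males and open points females. None of the 63 estimates passed an adjusted p of 0.05, and the SE bars are widest for Gabrd.

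At the low dose, in males only, the 7 subunits again gave 0 calls in Aro0.5, BPA0.5 and CPF1 (edgeR), beside 0.124%, 0.0434% and 0% of 16139 genes, and DESeq2 gave 0 as well. At an unadjusted p under 0.05 there were 2, 1 and 0 subunits, where 18.5%, 8.58% and 2% of all genes lay. Gabrb2 was at 107, 117, 120.0 and 121 CPM in the 4 Aro0.5 males, and only 1 of the 9 male controls (120.4 CPM) lay below the highest of them. Its log2 fold change was -0.36 ± 0.12 (adjusted p = 0.159), opposite in sign to the estimate at 5 mg/kg. Gabra3 was at 52.2, 54.4, 60.6 and 70.4 CPM in the same pups and between 69.1 and 83.7 CPM in the controls, with 3 of the 4 treated pups below every control. Its log2 fold change was -0.26 ± 0.08 (adjusted p = 0.145), and without the pup 106-3y it was -0.37. The neocortical markers summed to 219 to 400.2 CPM in Aro0.5 males and 276 to 614 CPM in controls, and their part in both values was not tested. With the thalamic and striatal marker sums as covariates the estimates were -0.32 for Gabrb2 and -0.24 for Gabra3 (adjusted p = 0.521 for each).
In BPA0.5 males Gabrb1 was at 7.16, 7.41, 7.504 and 8.55 CPM, within the control range of 5.52 to 8.21 CPM for 3 of the 4 pups. The log2 fold change was 0.25 ± 0.11 (adjusted p = 0.53). CPF1 males had no estimate beyond 0.16 in size on the log2 scale, the largest being -0.16 ± 0.12 for Gabrb2.

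In females at the high dose none of the 7 subunits was called in Aro5, BPA5 or CPF3 (edgeR), and none of the 16992 genes tested was (0% in each). DESeq2 called 0 subunits too. At an unadjusted p under 0.05 there were 0, 2 and 2 subunits, where 3.23%, 4.08% and 8.79% of all genes lay. Gabrb1 was at 5.52, 7.29, 8.76 and 9.79 CPM in BPA5 females and at 5.14 to 7.63 CPM in the 10 female controls, with 2 of 4 pups above every control (0.30 ± 0.13, adjusted p = 0.925). Gabra2 was at 68.2, 70.3, 94.1 and 102 CPM in the same pups and at 58.2 to 80.8 CPM in controls (0.26 ± 0.12, adjusted p = 0.925). The same 2 pups, 79-4x and 85-4x, were the high ones for both genes. Summed choroid plexus markers were at 762 and 1367 CPM in these 2 pups, below the range of 1594 to 4549 CPM in female controls, and their part in both values was not tested.
CPF3 females had lower estimates for the neighbouring genes Gabra4 and Gabrb1. Gabra4 was at 52.4, 59.2, 64.3 and 76.2 CPM, with 3 of 4 pups below the lowest female control (70.6 CPM), and its log2 fold change was -0.25 ± 0.10 (adjusted p = 0.483). Without pup 38-5x, whose Prox1 was at 32.7 CPM, it was -0.16. Gabrb1 was at 4.63, 4.88, 5.05 and 5.81 CPM, with 3 of 4 pups below the lowest control (5.14 CPM), and its log2 fold change was -0.30 ± 0.13 (adjusted p = 0.535). In Aro5 females the largest estimate was -0.06 (Gabra2).

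Whether the sexes differed in their response was tested with an interaction term over both sexes. None of the 7 subunits passed for Aro5, BPA5 or CPF3 (edgeR and DESeq2), beside 0.0984%, 0.0405% and 0.0463% of 17282 genes. At an unadjusted p under 0.05 there was 1 subunit for Aro5 and none for the others, where 8.92%, 2.79% and 5.60% of genes lay. It was Gabrb2, whose log2 fold change was lower in females than in males by an estimate of -0.40 ± 0.19 (adjusted p = 0.553). For BPA5 all 7 estimates were positive, from 0.05 for Gabrb2 to 0.31 for Gabrb1.

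The controls served to compare the sexes themselves. Among the 7 subunits, 2 were lower in females and none higher (edgeR, adjusted p under 0.05), and DESeq2 also called 2, beside 32.4% of all genes. In the edgeR test 30.2% of 15763 genes differed and 12.6% were lower in females, so 2 of 7 is near the background. Without a filter beyond 1 count neither was called (adjusted p = 0.0531 for Gabra3 and 0.058 for Gabra4). Gabra3, which lies on the X chromosome, was at 49.8 to 73.3 CPM in the 10 female controls (median 63.5) and at 69.1 to 83.7 CPM in the 9 male controls (median 73.6). Both groups overlapped between 69.1 and 73.3 CPM. Its log2 difference, female minus male, was -0.20 ± 0.06 (adjusted p = 0.0153). Gabra4 was at 70.6 to 88.9 CPM in females (median 74.3) and at 74.2 to 111 CPM in males (median 92.5), with a difference of -0.22 ± 0.07 (adjusted p = 0.0274). The other 5 subunits had differences between -0.14 ± 0.21 (Gabrd) and 0.01 ± 0.09 (Gabrb1), with adjusted p from 0.487 to 0.963.
Library form moved with sex in the controls. Within form A libraries, 0 of the 7 subunits were called, beside 10.9% of 15849 genes, with -0.22 for Gabra3 (adjusted p = 0.15) and -0.20 for Gabra4 (adjusted p = 0.226). With the litter as a block (limma-voom), which pairs brothers and sisters, 1 subunit was called, Gabra3 (-0.21, adjusted p = 0.02), beside 27.4% of all genes, and Gabra4 had an adjusted p of 0.0599. In the 7 litters with a control pup of each sex, Gabra3 was lower in the female in 7 of 7, by 0.04 to 0.36 on the log2 scale (mean difference -0.21 ± 0.12, SD), and Gabra4 in 5 of 7. Gabrd was lower in the female in 6 of these 7 litters (mean -0.51 ± 0.42), although it was not called over all controls. In litters N3, 6 and 8 the sister had only a form B library and the brother only a form A library. Sex and form cannot be told apart in those pairs. Gabra4 differed there by -0.61, -0.49 and -0.54. It differed by 0.06, -0.37, 0.18 and -0.37 in litters N2, N4, 11 and 13, while Gabra3 was lower in the female in both sets. The male N2-2y and the female N4-3x enter as the sum of a form A and a form B library. Gabra4 in N2-2y was at 88.8 CPM in form A and 70.5 CPM in form B, beside 82.8 CPM in the form A sister. The sign in litter N2 thus depends on the library used. The call of Gabra4 was also lost when any 1 of 3 pups was left out, namely the males N3-4y (-0.18, adjusted p = 0.0726) and 8-4y (-0.18, 0.0583) or the female 6-7x (-0.21, 0.0517).

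**Figure D3:**
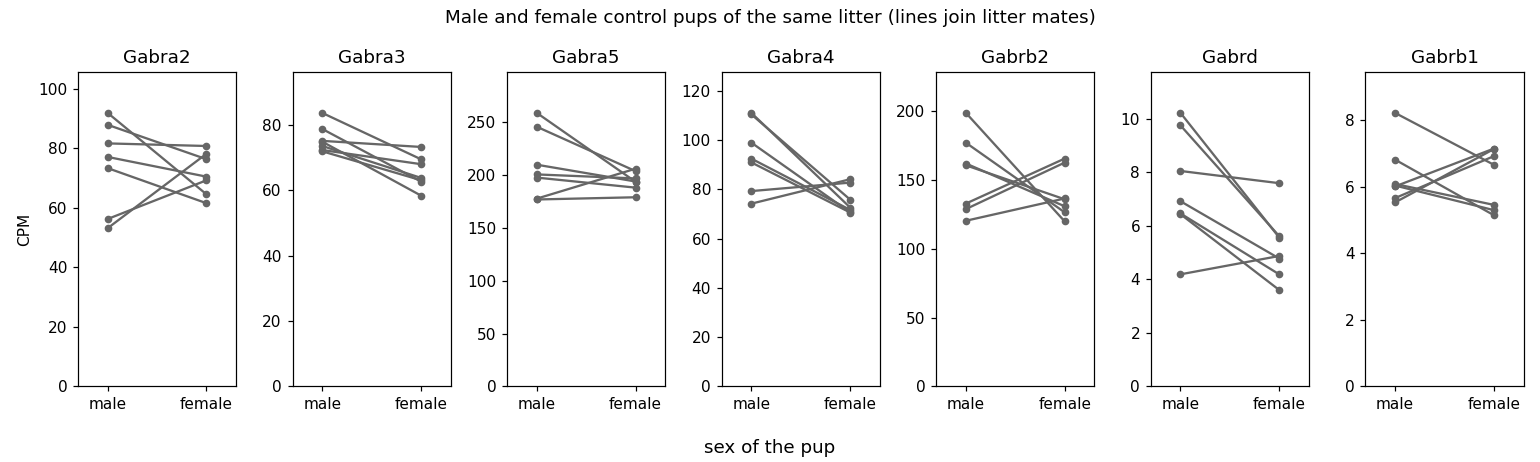
CPM of each subunit gene in male and female control pups of the same litter (linear axes from 0, 7 litters, lines join litter mates). All 7 lines fall from male to female for Gabra3, and 5 of 7 fall for Gabra4. Litters N3, 6 and 8 join a form A brother to a form B sister. The male of litter N2 and the female of litter N4 are each the sum of a form A and a form B library.

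The 2 control groups, compared to ask whether route and handling moved the subunits, gave 0 calls among the 7 subunits in males and in females (edgeR and DESeq2), beside 0.013% of 15387 and 0% of 16618 genes. No subunit had an unadjusted p under 0.05 in either sex, where 0.988% and 4.29% of all genes lay. The largest estimate, CONSC minus CONF, was 0.40 ± 0.29 for Gabrd in females, where the CONSC pup 9-1x had 13.2 CPM and the other 4 CONSC females 4.77 to 5.61 CPM. Form B against form A in the female controls gave 0 calls too (edgeR and DESeq2), beside 1.43% of 16577 genes, and no subunit had an unadjusted p under 0.05 (18.7% of genes). The largest estimates were 0.21 ± 0.10 for Gabrb2 and -0.33 ± 0.28 for Gabrd. Single libraries entered the comparison of forms, so the name N4-3x stood in both forms and its pairing was not modelled.
By the pup names in the labels, each of 2 pups was sequenced in a library of each form. The labels list different dissection times for the 2 libraries named N4-3x, and the same time for both of N2-2y. That the N4-3x libraries come from 1 pup therefore rests on the name alone. In the female N4-3x the subunits differed between the libraries by at most 0.09 on the log2 scale, apart from 0.27 for Gabrb1 at 141 and 200 counts. In the male N2-2y form B was lower than form A for 6 of the 7 subunits, by 0.23 (Gabra5) to 0.43 (Gabrb2), and higher by 0.18 for Gabrd at 99 and 121 counts.

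The balance of juvenile and adult subunits was summarized for each pup as an index, the mean log2(CPM + 0.5) of Gabra2, Gabra3 and Gabra5 minus that of Gabra4, Gabrb2 and Gabrd. Because transcript lengths do not cancel within a pup, only differences of the index between groups are read, and no test was made. All pups were of the same age, so the index does not follow development itself. Male controls had an index of 1.17 ± 0.21 (SD, n = 9) and female controls of 1.22 ± 0.29 (n = 10). The difference from controls was largest in CPF3 males, 0.31 (1.48 ± 0.36, n = 7), and exceeded the SD of the controls only there. It was 0.16 in BPA5 males, 0.01 in Aro5 males, 0.13 in Aro0.5 males, -0.07 in BPA0.5 males and 0.02 in CPF1 males. In females it was 0.015 in Aro5, 0.14 in BPA5 and 0.11 in CPF3. In CPF3 males the index ran from 0.797 in pup 45-1y, whose Gabrd was the highest of the group, to 1.88, and 4 of the 7 pups exceeded the highest male control at 1.502. They were the same 4 pups that lay below all controls for Gabrd, so the index partly repeats the Gabrd values. Mean Gabrd was 4.62 CPM in CPF3 males and 6.84 CPM in male controls. Of the juvenile subunits, Gabra2 had the higher mean in CPF3 males (88.5 beside 76.2 CPM). Gabra3 (66.7 beside 74.6 CPM) and Gabra5 (201 beside 205 CPM) had the lower. The striatal sum of pup 45-1y was 534 CPM, beside medians of 125 CPM in CPF3 males and 322 CPM in male controls, and its part in the index was not tested.

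**Figure D4:**
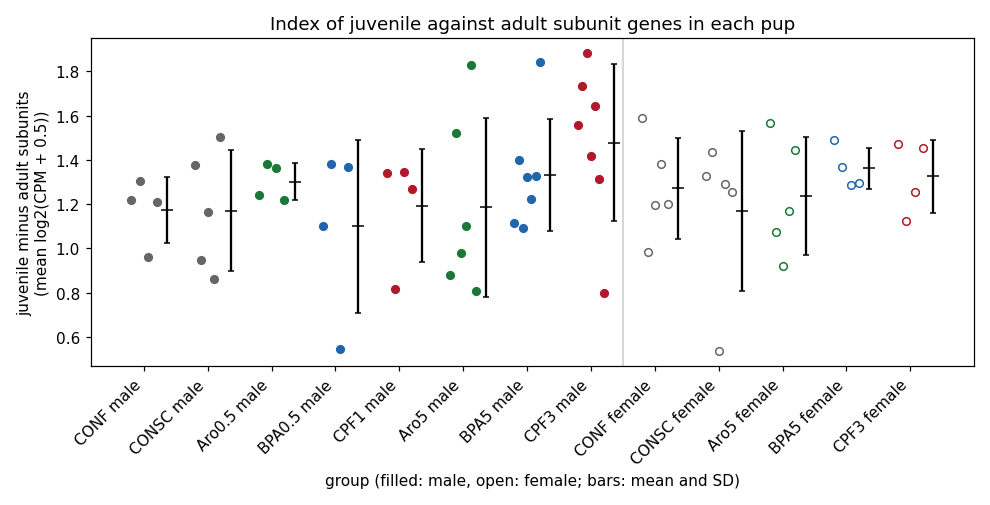
Index of juvenile minus adult subunits (mean log2(CPM + 0.5)) for each pup by group, with group mean and SD. CPF3 males have the highest mean (1.48), and the lowest single values are those of pup 9-1x in CONSC females (0.535) and of pup 73-4y in BPA0.5 males (0.545).

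Between pups of the same group the subunits did not vary independently. Deviations of log2(CPM + 0.5) from the group means were correlated over all 64 pups. This was done for the 21 pairs of subunits and for each subunit with 5 summed lists of regional markers, 56 relations in all. Subunit values were on TMM-scaled libraries, and marker sums were on CPM without that scaling. Permutations (100000, within groups, two-sided) gave p-values that were adjusted over the 56, and 1e-05 is the smallest they can give. Pups of a litter and genes of a library are not independent, which these p-values leave out of account. Of the 21 subunit pairs, 12 had an adjusted p under 0.05 by Pearson's r and 11 by Spearman's rho. The share of all gene pairs that would pass was not computed, so these counts are not read as particular to the subunits.

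The closest pairs crossed the classes as well as lying within them. Gabra2 rose with Gabrb1 (Pearson r = 0.68, Spearman rho = 0.60, permutation p = 1e-05 and 2e-05, adjusted 5.09e-05 and 8e-05, n = 64) and with Gabra5 (r = 0.61, rho = 0.57, permutation p = 1e-05 and 2e-05, adjusted 5.09e-05 and 8e-05). The adult subunit Gabra4 rose with the juvenile Gabra5 (r = 0.65, rho = 0.63, permutation p = 2e-05 and 1e-05, adjusted 8.62e-05 and 5.09e-05), and Gabra3 with Gabrb2 (r = 0.61, rho = 0.59, permutation p = 1e-05 for both, adjusted 5.09e-05). Gabrd ran against Gabra2 (r = -0.71, rho = -0.66, permutation p = 1e-05 for both, adjusted 5.09e-05) and against Gabra5 (r = -0.43, rho = -0.37, permutation p = 0.00215 and 0.00742, adjusted 0.00502 and 0.0173). Its extrasynaptic partner Gabra4 was not seen to vary with it (r = -0.04, rho = -0.06, permutation p = 0.806 and 0.672, adjusted 0.84 and 0.71). The neighbours Gabra4 and Gabrb1 had r = 0.34 (rho = 0.33, permutation p = 0.00925 and 0.014, adjusted 0.0207 and 0.0302).
Without the 2 pups farthest from the median in the first gene of each pair, r was 0.57 for Gabra2 with Gabrb1, 0.55 for Gabra2 with Gabra5, 0.65 for Gabra4 with Gabra5, 0.60 for Gabra3 with Gabrb2, -0.67 for Gabra2 with Gabrd and -0.38 for Gabra5 with Gabrd. Within the 20 form A males, the 20 form B males and the 23 females, r was 0.68, 0.75 and 0.62 for Gabra2 with Gabrb1, and 0.70, 0.68 and 0.57 for Gabra4 with Gabra5. It was 0.55, 0.78 and 0.46 for Gabra3 with Gabrb2, and -0.78, -0.75 and -0.52 for Gabra2 with Gabrd.

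The subunits followed the regional markers in different directions, and 17 of the 35 marker relations had an adjusted p under 0.05 by r and 18 by rho. The striatal sum varied 15.5-fold and the thalamic sum 7.45-fold over all pups. The share of all genes that would pass with these lists was not computed, so neither count is read as particular to the subunits. Gabrd rose with the summed striatal markers (r = 0.82, rho = 0.81, permutation p = 1e-05 for both, adjusted 5.09e-05), with r = 0.80, 0.86 and 0.86 in form A males, form B males and females, and 0.78 without the 2 pups farthest in the marker sum. It fell with the hippocampal list (Prox1, Zbtb20, Emx2, Grik4, Fibcd1 and Wfs1; r = -0.70, rho = -0.65) and with the thalamic list (Tcf7l2, Lef1, Gbx2, Slc17a6, Prkcd, Ntng1 and Zic1; r = -0.70, rho = -0.71), with a permutation p of 1e-05 and an adjusted p of 5.09e-05 for each. The 2 pups with most Gabrd, 73-4y of the BPA0.5 males and 9-1x of the CONSC females, had striatal sums of 715 and 1042 CPM, beside a median of 211 CPM over all pups.
Gabra2 and Gabra5 showed the reverse order. Both rose with the thalamic list, Gabra2 with r = 0.57 (rho = 0.58, permutation p = 3e-05 and 2e-05, adjusted 0.000112 and 8e-05) and Gabra5 with r = 0.45 (rho = 0.41, permutation p = 0.0016 and 0.00283, adjusted 0.00407 and 0.00755), and without the 2 farthest pups r was 0.59 and 0.48. Gabra2 rose with the hippocampal list (r = 0.64, rho = 0.68, permutation p = 1e-05 for both, adjusted 5.09e-05) and fell with the striatal list (r = -0.66, rho = -0.69, permutation p = 1e-05 for both, adjusted 5.09e-05). Gabra5 also rose with the hippocampal list (r = 0.48, rho = 0.42, permutation p = 0.00103 and 0.00276, adjusted 0.00275 and 0.00755) and fell with the striatal list (r = -0.61, rho = -0.58, permutation p = 1e-05 for both, adjusted 5.09e-05). Without the 2 farthest pups the 4 hippocampal and striatal values of r were 0.67, -0.63, 0.41 and -0.63, and their signs held in form A males, form B males and females alike.
Gabrb2 and Gabra3 rose with the neocortical list instead. For Gabrb2 r was 0.56 (rho = 0.57, permutation p = 2e-05 and 1e-05, adjusted 8.62e-05 and 5.09e-05), and 0.54 without the 2 farthest pups, with 0.78, 0.40 and 0.56 in form A males, form B males and females. For Gabra3 r was 0.51 (rho = 0.39, permutation p = 0.00027 and 0.00353, adjusted 0.000889 and 0.00899), and 0.40 without the 2 farthest, with 0.55, 0.47 and 0.51 in the 3 sets. Choroid plexus markers (Ttr, Folr1, Kl, Clic6 and Aqp1) ran with Gabrd (r = 0.47, rho = 0.52, permutation p = 8e-05 for both, adjusted 0.00028) and against Gabra2, Gabra4, Gabra5 and Gabrb1 (r from -0.63 to -0.47, adjusted p at most 0.00266).

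**Figure D5:**
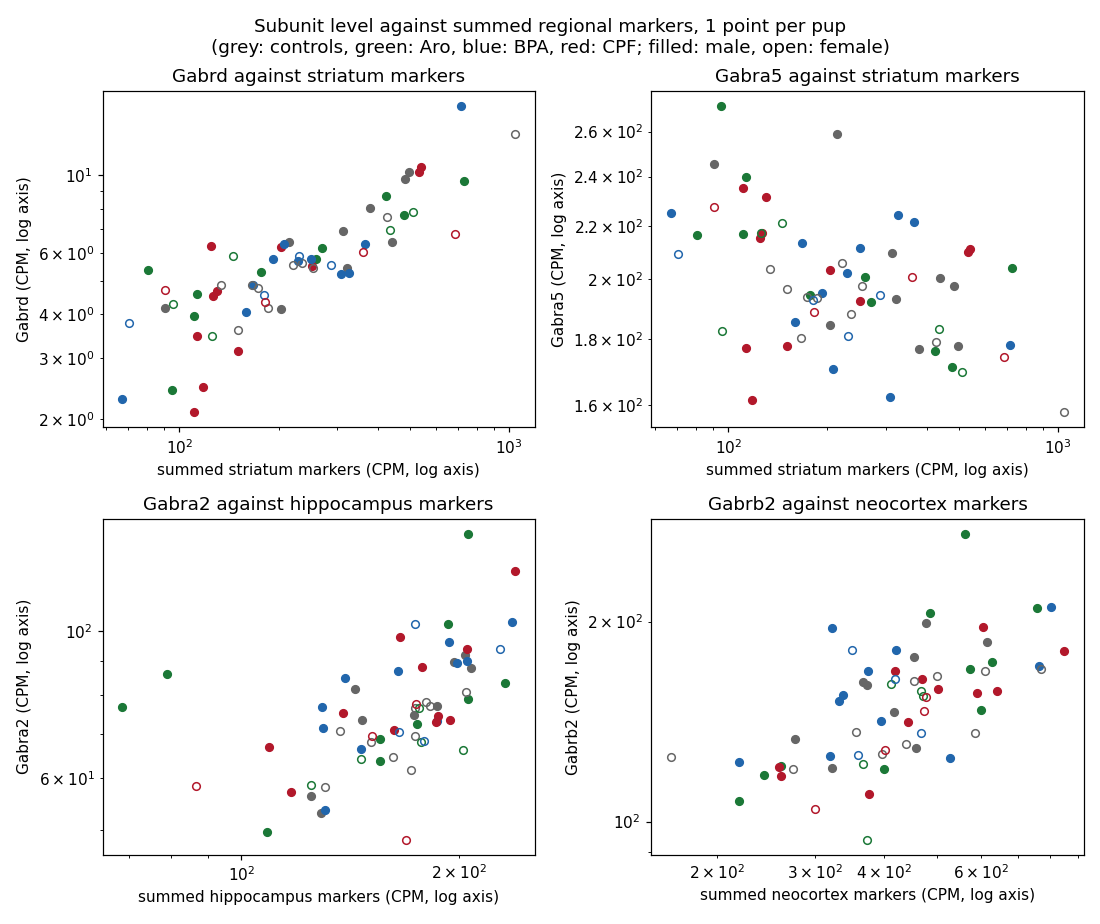
Subunit level against the summed CPM of regional marker genes, 1 point per pup, logarithmic axes. Gabrd climbs with the striatal sum while Gabra5 declines, Gabra2 climbs with the hippocampal sum and Gabrb2 with the neocortical sum; group means are not removed here.

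Of 14615 genes with a median of at least 1 CPM, those whose deviations were most like each subunit are given as a description over the 64 pups, without a test. For Gabrb2 they were Pcdh7, a protocadherin (r = 0.95), Cacnb4, a calcium channel beta subunit (0.91), and Plcxd2 (0.88), and for Gabrd Neu2, a sialidase (0.91), Ngef (0.90) and Inf2, a formin (0.88). For Gabra2 they were Elavl2, a neuronal RNA-binding protein (0.87), Slc7a11, the cystine-glutamate exchanger (0.86), and Kctd12, an auxiliary subunit of GABA-B receptors (0.86). For Gabra5 they were Fam188a (0.86), Ywhab, a 14-3-3 protein (0.85), and Serpini1, neuroserpin (0.85), and for Gabra4 Omg, a myelin-associated glycoprotein (0.82), Ttc19 (0.81) and Vsnl1, a neuronal calcium sensor (0.81). For Gabra3 they were Kifap3, a kinesin-associated protein (0.80), Agtpbp1 (0.73) and Sms, spermine synthase (0.73), and for Gabrb1 Pdpk1, a protein kinase (0.77), Nkain3 (0.76) and Ptpn4 (0.75). No subunit was among the 3 closest genes of another.

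Of the other subunit genes, Gabrp and Gabrr3 were at 0 in 30 and 13 of the 64 pups. Gabra6 had an estimate of -1.32 ± 0.43 in Aro0.5 males (adjusted p = 0.149) and was not called. Gabrg1 in Aro5 males was at 0.55 ± 0.22 (adjusted p = 0.316, edgeR). Over the pups within the time window of the study it was at 0.89 and was called (adjusted p = 0.0362). That run called 818 genes in all, beside 32 in the main fit, and kept both Aro5 males with Prox1 below 50 CPM. Of 12 receptor partners and both GABA-B subunit genes, all 14 were tested. None was called in a treated group by edgeR, which called at most 0.195% of all genes in any of these groups. DESeq2 called 1, Plcl1 in Aro0.5 males (-0.49), where it called 269 of 16139 genes.

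Between control females and males, of the 12 partners 4 were higher and 1 lower in females, beside the 30.2% of all genes. Lhfpl4, which anchors synaptic GABA-A receptors with neuroligin 2, was at 26.7 to 38.5 CPM in females (median 31.8) and at 11.6 to 22.1 CPM in males (median 18.6), and the sexes did not overlap (0.83 ± 0.10, adjusted p = 1.63e-06). Nlgn2, neuroligin 2 itself, was at 257 to 328 CPM in females (median 301.5) and 201 to 241 CPM in males (median 225), again without overlap (0.42 ± 0.06, adjusted p = 8.15e-06). Both held within form A libraries, with 0.73 for Lhfpl4 (adjusted p = 0.0039) and 0.32 for Nlgn2 (adjusted p = 0.00596), and with the litter as a block (0.83 and 0.42, adjusted p = 3.9e-06 and 1.86e-05). Form B exceeded form A in female controls by 0.30 for Lhfpl4, 0.23 for Nlgn2 and 0.26 for Trak1 (adjusted p = 0.0518, 0.0501 and 0.0881), and DESeq2 called these 3. Clptm1, which retains the receptors in the endoplasmic reticulum, and the trafficking adaptor Trak1 were higher (0.22 ± 0.05 and 0.26 ± 0.07, adjusted p = 0.00111 and 0.00519), and Plcl1, which binds the receptor-associated protein Gabarap, was lower (-0.31 ± 0.12, adjusted p = 0.0462). Within form A libraries Clptm1 (0.20, 0.0771), Trak1 (0.12, 0.345) and Plcl1 (-0.24, 0.393) were no longer called. Of the pups left out in turn, 13 of 19 ended the call of Plcl1.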

How the data were processed

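Raw counts per gene of 66 libraries were analysed. Per the labels and methods, the authors made these counts by aligning single-end poly-A reads with STAR to Rnor_6.0 and counting with featureCounts, and deposited them without normalization; versions, strand setting and treatment of multi-mapping reads are not given in the sources used here. The labels and the methods name different sequencers.

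Both libraries of 2 pups, matched by the pup name, were summed. Exceptions were the test of form B against form A and the fit with library form as a covariate, which used single libraries. CPM are counts per 1000000 of the library total. Tests used edgeR 4.0.16 (quasi-likelihood F test, TMM, filterByExpr, Benjamini-Hochberg adjustment over all genes tested, threshold 0.05) in R 4.3.3, with CONF and CONSC of a sex combined, 1 fit per dose and sex, and the control route as a covariate between the sexes. Pups shared litters, so pups are not fully independent. Alternatives were DESeq2 1.42.0, its size factors in edgeR, 2 other count filters (1 count in all, or at least 10 in every pup), the time window, controls of 1 route, 1 pup per litter, library form, the litter as a block (limma 3.58.1) and leaving out each pup. Leaving out pups under 50 CPM of Prox1 and marker covariates were added after seeing the data. Scripts were tested on simulated data.

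Litters pair control brothers and sisters because the labels name the litter. Deviations from the group means correlated over 7 such pairs with r from -0.45 to 0.22 (median -0.24), over 0.1 in 1 pair. The members and lists were chosen with earlier results of these data known. Named genes were the 7 members, other subunit genes, 12 receptor partners, both GABA-B subunits and, for each member, the 3 genes with the highest r. Results for some of these genes are not reported here.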

Additional observations from a re-analysis of the deposited data

Results flagged for a closer look

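In the 13 groups of 4 to 7 pups, the highest or lowest pup was compared with the spread of its group by Dixon's criterion over 104 sets of values, and 10 stood apart, where chance gives about 5% of sets. Gabrd was at 13.2 CPM in pup 9-1x of the CONSC females, beside 4.77 to 5.61 in the other 4, and at 15.8 CPM in pup 73-4y of the BPA0.5 males, beside 4.86 to 6.34. The summed striatal markers were at 1042 and 715 CPM in both pups, and their part was not tested. The index of pup 9-1x was 0.535, beside 1.26 to 1.44 in the other CONSC females.

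Pup 21-1y of the CPF1 males had the lowest Gabra2 of its group, 57.2 CPM beside 70.8 to 73.4, and the lowest index, 0.815 beside 1.27 to 1.35. Its striatal sum was 541 CPM, and the other 3 pups had 127 to 252 CPM. Pup 91-6y of the BPA5 males had an index of 1.84, beside 1.09 to 1.40 in the other 6.

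Gabra3 was at 50.9 CPM in pup 120-3x of the Aro5 females, beside 63.8 to 67.1 in the other 4, and Gabra4 at 95.5 CPM in pup 117-6x of that group, beside 68.0 to 75.0. Gabrb1 was at 7.54 CPM in pup 10-2y of the CONSC males, beside 5.65 to 6.08, and Gabrb2 at 165.6 CPM in pup 8-2x of the CONSC females, beside 125 to 137.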

How the results depend on the processing

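Outside the comparison of the sexes, none of the 7 subunits was called under any alternative run. Of 3976 alternative log2 values, none gained a call, and 242 values that were not called changed sign. Only the values of Gabra3 and Gabra4 between the sexes had a call to lose, and 8 of these lost it. In the comparison of the sexes, 2 subunits were called, 0 without a filter beyond 1 count (Gabra3 adjusted p = 0.0531, Gabra4 0.058), 0 in form A libraries, 1 with the litter as a replicate block, and 1 to 2 when each pup was left out in turn. The form A comparison held fewer libraries, and otherwise the cause was not tested. All genes called there ranged from 1721 (form A) to 5586. In Aro5 males they were 32, with 0 (library form as a covariate) to 818 (time window) in the alternatives, in BPA5 males 31 (0 to 63), in CPF3 males 26 (0 to 82), in Aro0.5 males 20 (0 to 322) and in BPA0.5 males 7 (0 to 39). In CPF1 males they were 0 throughout, and in Aro5, BPA5 and CPF3 females 0, with up to 119, 43 and 110. For the interaction they were 17 (4 to 609), 7 (0 to 15) and 8 (1 to 16), for form B against form A 237 (64 to 1049), and between control routes 2 (0 to 2) in males and 0 (0 to 1) in females. The differences of the index moved by less than 1 SD of the controls under each alternative. Apart from CPF3 males the differences were themselves smaller than that SD, so this measure cannot show whether they held. No alternative of the index used the marker sums. Form B alone could not be fitted between the sexes, since male controls had 1 such library. Gabrd and Gabrb1, with CPM below 16, have the least counts and the largest counting error of the 7.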
